A study of Mus musculus with 8 samples.

Results

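Apoe-high microglia were the cells in which transcripts of Apoe, the gene of apolipoprotein E, made up at least 0.5% of all transcript molecules (UMIs, unique molecular identifiers) counted in the cell. The rule was applied to every cell barcode with at least 1000 UMIs, at least 500 genes and at most 10% of UMIs from mitochondrial genes. It found 419 cells among the 14626 kept barcodes of 8 libraries. They were compared with the 12954 cells of the same libraries whose Apoe share lay below 0.1%, called Apoe-low, and 1253 cells lay between these bounds. The cells were chosen by their Apoe UMIs, so the values of Apoe itself are a description and carry no test.

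The cells came from single-cell RNA sequencing (10x Genomics, counting at the 3′ end of transcripts) of YFP-positive cells sorted from the lumbar spinal cord of C57BL/6 mice, with the cords of 3 animals pooled into each library. Sciatic nerves were cut on both sides, which injures the axons of neurons whose cell bodies or central endings lie in this part of the cord, and microglia were taken from naive animals and on days 1, 2 and 3. Control animals were Cx3cr1-yfp-creER/+, and A20 cKO animals were Cx3cr1-yfp-creER/+ with Tnfaip3 fl/fl, both treated with tamoxifen as young adults. The 4 time points and 2 genotypes gave 8 libraries, 1 for each condition.

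The creER and YFP sit at Cx3cr1, which microglia, border macrophages and circulating monocytes all use, so the sort is not specific to microglia. Tnfaip3 encodes A20, an enzyme that restrains NF-kB signalling. Tnfaip3 was not lower in the libraries labelled A20 cKO. It stood at 6.83 to 25.6 CPM (counts scaled to a common total of UMIs per sum of cells) in the Apoe-low cells of the 4 control libraries and at 41.0 to 69.8 CPM in those of the 4 A20 cKO libraries. These counts come from the 3′ end of the transcript and the floxed exon was not given in the sources used here, so they do not check the deletion. A20 cKO names the labelled libraries throughout.

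Apolipoprotein E carries cholesterol and other lipids between cells. In the central nervous system astrocytes are its main source, and microglia are known to raise Apoe when they leave the homeostatic state, as in the disease-associated state that depends on the lipid receptor TREM2. That state is known for higher Lpl, Cst7, Cd63, Axl, Spp1 and Lyz2 and for lower P2ry12 and Tmem119.

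The 14883 barcodes held 56523733 UMIs, with 1648400 to 15817426 per library, and 98.3% passed the limits. Some barcodes occurred in more than 1 library. There were 149 of them, and 325 kept cells (2.22%) and 23 Apoe-high cells (5.49%) carried one. Of the shared occurrences, 117 lay between libraries within a set of 5 (control day 3 and the 4 A20 cKO), 27 within the other 3 (control naive, day 1 and day 2) and 90 across the sets. The labels do not give this split, and it is partly confounded with genotype.

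The label was checked with 10 genes of microglial identity. The Apoe-high cells carried a median of 8 of them and the Apoe-low cells a median of 9. Tmem119 had a UMI in 94.0% of Apoe-high and 99.6% of Apoe-low cells, and P2ry12, the microglial ADP receptor, in 88.5% and 98.5%. These shares pool all libraries without thinning, so they mix library with class. Of the Apoe-high cells 313 came from A20 cKO libraries, and 8903 Apoe-low cells came from control libraries. Within libraries, on cells with a UMI after thinning to 2000 UMIs, the log2 fold change was 0.02 for Tmem119 and -0.05 for P2ry12. Neither passed (edgeR adjusted p = 0.986 and 0.953). Exceptions to the label were 17 Apoe-high cells (4.06%) with UMIs of fewer than 3 identity genes, against 11 Apoe-low cells (0.0849%). Of these 17 cells 14 carried a barcode shared between libraries, and 6 lay among the 25 Apoe-high cells of control day 3. Control naive, day 1 and day 2 held 0 such cells. A pair of barcodes was Apoe-high in all 5 libraries of the larger set, with medians of 0 and 1 identity genes. These cells go against the label, so results are also given without them and without cells of shared barcodes.

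Markers of other cells were mixed. Their shares of cells below also pool all libraries without thinning, so they mix library with class. Of 10 genes of border-associated macrophages, Cd163, Lyve1 and Cbr2 were at 0 in all Apoe-high cells, and of 8 monocyte genes Ly6c2, Vcan and Chil3 were at 0, where 0 of 419 cells allows a share of up to 0.716% of cells with a UMI. Cd163 and Lyve1 were at 0 in the Apoe-low cells too. Cbr2, Ly6c2, Vcan and Chil3 had a UMI in 0.0926% to 0.317% of Apoe-low cells, all below 0.716%. These zeros therefore cannot show that such cells were absent. Mrc1 had a UMI in 2 Apoe-high cells (0.477%, against 0.124% of Apoe-low cells) and Pf4 in 1 (0.239% against 0.286%). The monocyte receptor Ccr2 had one in 4 (0.955% against 0.494%). F13a1 (0.477% and 0.0772%), Folr2 (0.716% and 0.278%) and the monocyte gene Hp (0.955% and 0.116%) were also more frequent in Apoe-high cells. The monocyte gene Plac8 was less frequent there (0.716% and 3.81%). Of the other border macrophage genes, Ms4a7 had a UMI in 16 Apoe-high cells (3.82%) and 22 Apoe-low cells (0.170%), and Siglec1 in 5.25% and 2.56%. Stab1 went the other way (38.2% and 44.7%). The summed level of the border macrophage list ranged from 79.4 to 262 CPM in Apoe-high and from 135 to 257 CPM in Apoe-low cells, and that of the monocyte list from 0 to 24.6 and from 2.81 to 115 CPM. Sums of 91.2 to 541 and 109 to 414 CPM were found for 10 astrocyte genes. Of these, Slc1a3 had a UMI in 52% and 46.7%, Mt3 in 6.92% and 1.07%, Gfap in 2.86% and 0.509%, and the water channel Aqp4 in 1.67% and 0.131%. For 8 oligodendrocyte genes the sums were 91.2 to 382 and 138 to 267 CPM. The myelin gene Mbp had a UMI in 25.8% of Apoe-high and 13.9% of Apoe-low cells. Mag, of the same list, went the other way (12.4% and 14.3%). Within libraries, a UMI of any gene of this list was less frequent in the Apoe-high cells of control naive (21.4% against 33.6%), control days 1 and 2 and A20 cKO day 3. It was more frequent in those of control day 3 (56% against 48.6%) and of A20 cKO naive, day 1 and day 2. The neuronal gene Meg3 had one in 3.10% and 0.386%, and the endothelial gene Flt1 in 2.63% and 0.201%. Nefl and Stmn2 went the way of Meg3, and Snap25 (0% and 0.262%), Syt1 and Rbfox3 the other way. Cldn5, Ly6c1 and Itm2a went the way of Flt1, and Pecam1 (5.73% and 7.26%) and Cdh5 (0% and 0.448%) the other way. The part of these markers in the results was not tested. Neuronal genes summed to 0 to 86.1 against 2.21 to 17.9 CPM, endothelial genes to 0 to 99.8 against 14.6 to 56.3 CPM and lymphocyte and neutrophil genes to 0 to 36.9 against 0.38 to 38.9 CPM. Without the cells with a Ms4a7 UMI the difference between the classes comprised 148 genes higher and 84 lower, close to the counts given below.

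Apoe (ENSMUSG00000002985) lies at chr7:19696109-19699188 on the minus strand of GRCm38. The sequences before the start sites of Apoe and of 3 genes that were higher in Apoe-high cells (Spp1, Lyz2 and Cst7) are shown. Apoe defined the classes, so its higher level there is fixed by the rule. The other 3 were shown because they share a short motif, so that sharing is not a result. Each sequence is 250 bases, read 5′ to 3′ on the gene's strand and ending just before the start site, from RefSeq on GRCm38.p6. Capitals mark AGGAAGT or its reverse complement ACTTCCT, letters like those bound by the myeloid factor PU.1. The intervals are chr7:19699189-19699438 (minus strand) for Apoe, chr5:104434861-104435110 (plus) for Spp1, chr10:117282273-117282522 (minus) for Lyz2 and chr2:150570165-150570414 (plus) for Cst7.
Apoe: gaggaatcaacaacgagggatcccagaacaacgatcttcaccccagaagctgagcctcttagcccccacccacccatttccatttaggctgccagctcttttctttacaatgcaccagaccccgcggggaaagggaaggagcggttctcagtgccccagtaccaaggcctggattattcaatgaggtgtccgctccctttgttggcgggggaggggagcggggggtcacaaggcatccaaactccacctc
Spp1: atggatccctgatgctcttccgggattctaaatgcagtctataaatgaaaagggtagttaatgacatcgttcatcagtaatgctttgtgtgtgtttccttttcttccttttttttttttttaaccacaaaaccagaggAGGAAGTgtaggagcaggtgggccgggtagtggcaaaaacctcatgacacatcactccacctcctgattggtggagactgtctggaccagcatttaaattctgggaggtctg
Lyz2: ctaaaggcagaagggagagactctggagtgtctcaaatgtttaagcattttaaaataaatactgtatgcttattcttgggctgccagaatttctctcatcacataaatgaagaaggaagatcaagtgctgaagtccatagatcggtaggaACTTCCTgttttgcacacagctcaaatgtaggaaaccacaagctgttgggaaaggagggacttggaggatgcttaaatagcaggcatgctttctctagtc
Cst7: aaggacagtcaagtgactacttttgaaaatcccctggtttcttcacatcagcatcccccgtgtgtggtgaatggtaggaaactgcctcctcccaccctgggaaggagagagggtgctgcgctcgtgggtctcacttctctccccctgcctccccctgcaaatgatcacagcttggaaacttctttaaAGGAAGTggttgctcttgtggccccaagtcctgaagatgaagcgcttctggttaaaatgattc

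The match began 112 bases before the start site in Spp1, 100 bases before it in Lyz2 and 63 bases before it in Cst7, and Apoe had none. On both strands, from 250 bases before to 50 after the start site, AGGAAGT was present in 4 of the 9 genes named below as higher that had an entry (Cd72, Cst7, Lyz2 and Spp1) and in 0 of 6 named as lower, against 9.57% of 27025 promoters. TGANTCA, an AP-1 motif, was present in 1 of the 9 (Cst7) and 0 of the 6, against 7.93%, and CACGTG, an E-box, in 1 (Abca1) and 0, against 7.24%. None of the 3 motifs contains another. A match describes letters in this window and is not a bound site.

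The first question was how many microglia of each condition were Apoe-high. In the control libraries 14 of 568 naive cells met the rule, 34 of 3323 on day 1, 33 of 3585 on day 2 and 25 of 2117 on day 3. These are 2.46% (95% exact binomial interval 1.35 to 4.10), 1.02% (0.710 to 1.43), 0.921% (0.634 to 1.29) and 1.18% (0.766 to 1.74). In the A20 cKO libraries 108 of 2922 naive cells, 60 of 886 on day 1, 69 of 667 on day 2 and 76 of 558 on day 3 met it. These are 3.70% (3.04 to 4.45), 6.77% (5.21 to 8.63), 10.3% (8.14 to 12.9) and 13.6% (10.9 to 16.7). The control shares were lower on the 3 days after injury than in the naive library, and the A20 cKO shares were higher on each day than in theirs. Summed over libraries, 106 of 9593 control cells (1.10%) and 313 of 5033 A20 cKO cells (6.22%) were Apoe-high.

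Between A20 cKO and control the share differed by 1.23 percentage points in naive libraries (Newcombe 95% interval -0.514 to 2.47), which includes 0. It differed by 5.75 points on day 1 (4.22 to 7.62), 9.42 points on day 2 (7.30 to 12) and 12.4 points on day 3 (9.78 to 15.6), the last being 11.5-fold. Within A20 cKO the day 3 share exceeded the naive share by 9.92 points (7.22 to 13.1), while days 2 and 3 differed by 3.28 points (-0.360 to 7.01). Within controls, the differences from naive were -1.44 points on day 1 (-3.10 to -0.372), -1.54 points on day 2 (-3.20 to -0.487) and -1.28 points on day 3 (-2.96 to -0.147). Each condition is 1 library, so there is no replicate check and no test between conditions. The intervals cover counting error only and leave out the spread between animals and preparations. Library and condition cannot be told apart.

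**Figure D1:**
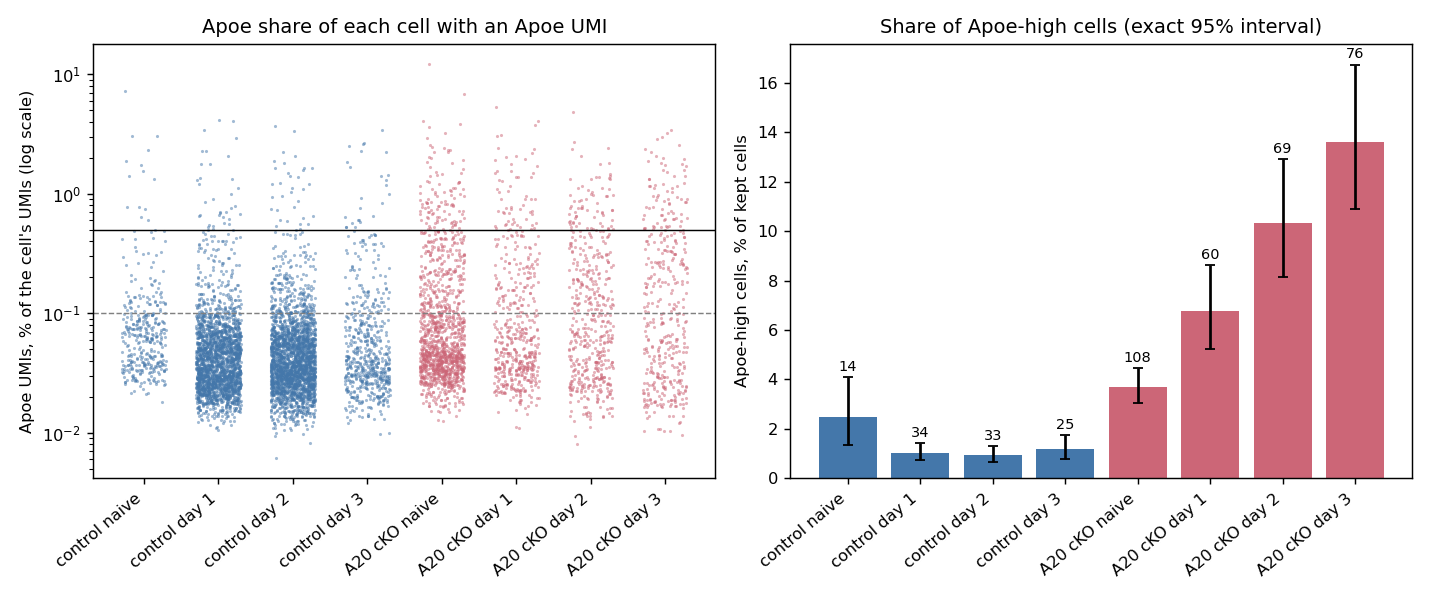
Share of Apoe-high cells in each library, in percent of kept cells, with the 95% exact binomial interval as bars. The 4 control libraries lie between 0.921% and 2.46% and the 4 A20 cKO libraries between 3.70% and 13.6%.

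Apoe UMIs were not confined to the Apoe-high cells. At least 1 was found in 65.0%, 69.0%, 71.1% and 28.6% of control cells (naive and days 1 to 3) and in 45.2%, 58.1%, 75.7% and 73.5% of A20 cKO cells. The order of these shares was not that of the Apoe-high shares, since control day 2 was above control naive here and below it there. No cell type that lacks Apoe was at hand to measure the share that free RNA gives, so these shares count cells with a UMI and not cells that express the gene. The level over all kept cells of a library was 1113, 490, 470 and 310 CPM in controls and 854, 1333, 1573 and 1928 CPM in A20 cKO. The few Apoe-high cells carried 20.5% to 65.8% of the Apoe UMIs of their library.

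Among the 419 cells the median Apoe share was 0.881% and the highest 12.2%. Of them 177 cells had at least 1% and 59 cells at least 2%. Apoe UMIs per cell ranged from 6 to 375 with a median of 31, whereas no Apoe-low cell held more than 13 and 46.8% held none. There was no gap at the bound. The tenth cell inside it had 0.508% and the tenth outside 0.491%, with 48 cells from 0.5% to 0.55% and 59 from 0.45% to 0.5%.

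Depth differed little between the classes. The median UMIs per cell were 2834 in Apoe-high and 2765 in Apoe-low cells of control naive, and 3838 and 4487 in A20 cKO day 3. With every cell thinned to 2000 UMIs and shallower cells left out, and the classes chosen anew, the shares were 2.39%, 1.12%, 0.948% and 1.06% in controls and 4.40%, 6.87%, 10.7% and 13.6% in A20 cKO. The naive difference between genotypes was then 2.01 points (0.128 to 3.34) and excluded 0. Without cells short of identity genes and without shared barcodes, the shares were 2.51%, 1.04%, 0.908% and 0.920% in controls and 3.70%, 6.21%, 9.94% and 13.5% in A20 cKO, and day 3 differed 14.7-fold.

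The next question was which other genes differed between Apoe-high and Apoe-low cells within a library. Counts were summed over the cells of each class in each library, Apoe was left out, and 7961 genes were tested with edgeR's quasi-likelihood test, the library as a block and Benjamini-Hochberg adjustment. The 8 libraries are different conditions, so the test asks for a difference that they share, and its p-values measure the spread between these libraries. At an adjusted p under 0.05, 156 genes were higher (1.96% of those tested) and 88 lower (1.11%). The median log2 fold change over all genes was -0.03. Where the mean reached 50 CPM or more, 77 genes were higher and 51 lower. Without cells short of identity genes or of shared barcode there were 171 higher and 87 lower. In the 4 control libraries alone, which held 106 Apoe-high cells, 36 were higher and 8 lower, and in the 4 A20 cKO libraries alone 114 and 51. Control naive, day 1 and day 2 alone gave 39 and 5.

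A sum can rest on a single cell, so the number of thinned cells with a UMI of each gene was also tested in the place of UMIs, an alternative chosen after the data were seen. It tested 5886 genes and called 19 higher and 5 lower, of which 16 and 5 had also been called on UMIs. Of the 198 genes called on UMIs that it tested, 190 had the same sign. This test can lose changes of genes that most cells already express.

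**Figure D2:**
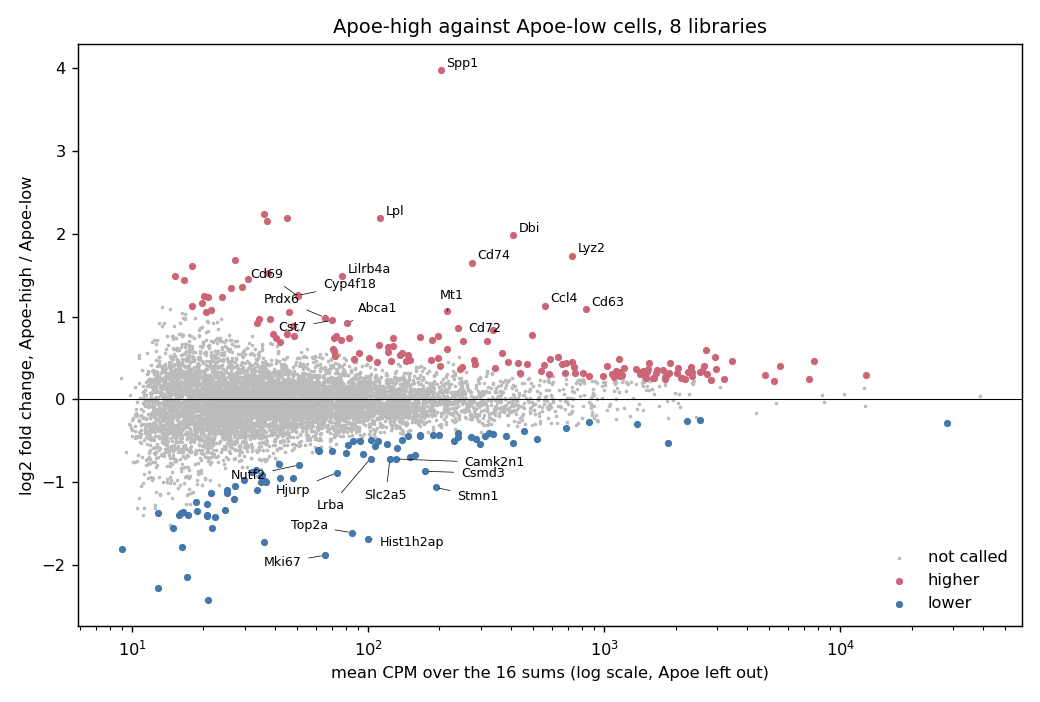
Log2 fold change of Apoe-high against Apoe-low cells for the 7961 tested genes against their mean CPM on a log scale. Red points are the 156 genes called higher, blue points the 88 called lower and grey points the rest; the 15 named higher genes reach 3.98 (Spp1) and the 10 named lower genes -1.88 (Mki67).

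Among the gene lists examined, that of the disease-associated state had the most higher members. Of 25 tested members of that list, 19 rose and 0 fell, with a median log2 fold change of 0.46 against -0.03 over all genes. The list was chosen with earlier results of these data known. In the controls alone 15 of 24 rose and in A20 cKO alone 12 of 26, and on cells with a UMI 7 of 22 rose. Trem2, the lipid receptor of this state, did not pass (0.17, edgeR adjusted p = 0.258), while its adaptor Tyrobp rose by 0.23 on the log2 scale (edgeR adjusted p = 0.0237). Clec7a was not analysed here.

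Lyz2, the macrophage lysozyme, stood in Apoe-high cells at 2198, 715, 1630 and 1341 CPM in control naive and days 1 to 3, and its A20 cKO values were 847, 865, 734 and 791 CPM. The Apoe-low cells of the same libraries had 315, 248, 369 and 393 CPM and 335, 299, 274 and 319 CPM. The classes did not overlap, and the log2 fold change was 1.74 ± 0.10 (SE, edgeR adjusted p = 3.68e-26). A single cell held 60.2% of the Lyz2 UMIs of the Apoe-high cells in control naive, 42.6% on control day 2 and 27.5% on control day 3. In the other libraries it held 21.8% or less. Among thinned cells 67.6% of Apoe-high and 43.8% of Apoe-low cells had a Lyz2 UMI, with the higher share in 8 of 8 libraries. Reads of Lyz2 and its near copy Lyz1 can be hard to separate.

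Cd63, a tetraspanin of late endosomes and lysosomes, did not overlap between the classes either. It ranged from 961 to 1403 CPM (median 1088) in Apoe-high and from 407 to 726 CPM (median 512) in Apoe-low cells. The log2 fold change was 1.09 ± 0.09 (SE, edgeR adjusted p = 2.43e-17), and 78.5% against 57.5% of thinned cells had a UMI, higher in 8 of 8 libraries. The lysosomal proteases Ctsb and Ctsd and the ferritin chain Fth1 were among the most abundant members, and rose by 0.60, 0.46 and 0.41 on the log2 scale, each higher in 8 of 8 libraries.

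Lpl, the lipase that frees fatty acids from lipoproteins, had 503, 152, 66.9 and 480 CPM in the Apoe-high cells of control naive and days 1 to 3 and 67.6, 140, 35.7 and 93.9 CPM in those of A20 cKO. Apoe-low cells had 17.6 to 43.9 CPM. Every library was higher in its Apoe-high cells, by as little as 0.20 on the log2 scale in A20 cKO day 2, and the fitted value was 2.19 ± 0.22 (SE, edgeR adjusted p = 4.20e-12). Thinned cells with a Lpl UMI made up 10.7% against 5.07%, higher in 8 of 8 libraries, and the fold on cells with a UMI was 1.41 (edgeR adjusted p = 5.82e-04). Up to 78.9% of a library's Lpl UMIs in this class came from 1 cell.

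Lilrb4a, an inhibitory immune receptor, rose by 1.49 on the log2 scale on UMIs and by 1.45 on cells with a UMI (edgeR adjusted p = 1.13e-09 and 1.86e-05). It stood at 33.4 to 53.2 CPM in the control and 146 to 208 CPM in the A20 cKO Apoe-high cells, against 4.20 to 7.0 and 45.3 to 96.3 CPM in Apoe-low cells. Its identifier has a near-identical neighbour, so its counts are uncertain. Cst7, an inhibitor of cysteine proteases, rose by 0.96 and 0.97 (edgeR adjusted p = 5.63e-05 and 0.0106), with 38 to 175 CPM (median 82.8) in Apoe-high and 8.04 to 113 CPM (median 35.7) in Apoe-low cells. The ranges of the classes overlapped for both genes, but each library was higher in its Apoe-high cells.

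Axl, a TAM receptor for dying cells, rose by 0.75 (edgeR adjusted p = 0.00337) and was higher in 6 of 8 libraries. It had 212, 22.8, 134 and 123 CPM in the Apoe-high cells of controls against 11.7, 7.99, 15.2 and 47.5 CPM in Apoe-low cells. In A20 cKO it had 285, 290, 264 and 295 CPM against 133, 161, 298 and 340 CPM, so on days 2 and 3 the Apoe-low cells were the higher. Cd72, a receptor with an inhibitory motif, had 150 to 499 CPM (median 305) in Apoe-high and 18.3 to 443 CPM (median 113) in Apoe-low cells, and rose by 0.86 (edgeR adjusted p = 4.32e-05).

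Spp1, which encodes osteopontin, had the largest fold change and the narrowest base. Its level was 212, 15.2, 460 and 2301 CPM in the control and 38.2, 14.5, 21.4 and 73.8 CPM in the A20 cKO Apoe-high cells, against 3.27 to 35.4 CPM in Apoe-low cells. The fitted log2 fold change was 3.98 ± 0.32 (SE, edgeR adjusted p = 4.46e-17). Yet 25 of 419 Apoe-high cells (5.97%) had a Spp1 UMI, and 1 cell held from 50% to 90.9% of the class's Spp1 UMIs in every library. On control day 3, 187 UMIs came from 5 cells. After thinning, 3.87% of Apoe-high and 1.69% of Apoe-low cells had a UMI, higher in 6 of 8 libraries, and the count of cells was too low to be tested. Lgals3, which encodes galectin-3 and lies under 50 CPM, rose by 2.19 with up to 100% of a library's UMIs from 1 cell.

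Igf1, a growth factor of the same state, had a UMI in 7 Apoe-high cells (1.67%) and 4 Apoe-low cells. Fabp5, a fatty acid carrier, was found in 17 cells (4.06%) against 205 (1.58%). Gpnmb had a UMI in 0 of 419 cells, which allows a share of up to 0.716% of cells with a UMI, and in 3 Apoe-low cells. These 3 genes were too sparse to be tested, and their shares pool the cells of all libraries.

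Genes of lipid handling changed in part. Of 11 tested lipoprotein receptors and lipid storage genes, 4 rose and 0 fell, with a median log2 fold change of 0.45. Beside Lpl these were Ch25h, which makes 25-hydroxycholesterol (2.24 on the log2 scale, edgeR adjusted p = 9.74e-08, 0 to 291 CPM in Apoe-high and 0.761 to 19.0 in Apoe-low cells), the lipid droplet coat Plin2 (0.79, edgeR adjusted p = 0.0272) and the lysosomal cholesterol carrier Npc2 (0.49, edgeR adjusted p = 7.88e-06). On cells with a UMI 1 of 9 rose. Of 13 tested enzymes and regulators of cholesterol synthesis, 0 were called by edgeR in either direction, with a median of -0.09.

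Abca1, the pump that loads lipid onto apolipoproteins, was the called member of 5 tested genes of apolipoproteins and efflux (0.92 ± 0.16, SE, edgeR adjusted p = 3.66e-05). Its Apoe-high cells had 53.0, 22.8, 0 and 234 CPM in controls and 121, 121, 128 and 161 CPM in A20 cKO. Apoe-low cells had 18.5 to 91.0 CPM. Each A20 cKO library was higher in its Apoe-high cells, whereas the first 3 control libraries rested on 5 UMIs in all. In control naive, day 1 and day 2 alone the fitted value was -0.50, the opposite sign.

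Apoc1, which lies beside Apoe in the genome and encodes another lipoprotein component, was too sparse for the test. Pooled over libraries, it had a UMI in 21 Apoe-high cells (5.01%, exact interval 3.13 to 7.56) and 37 Apoe-low cells (0.286%). Of its 38 UMIs in Apoe-high cells, 5 lay in the cells short of identity genes. Clu and Pltp, a chaperone and a lipid transfer protein that astrocytes also make, behaved otherwise. The 17 cells short of identity genes held 146 of the 151 Clu UMIs and 34 of the 41 Pltp UMIs of the class.

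The same 17 cells carried other values. Dbi, the acyl-CoA binding protein, had 26.5, 144, 117 and 3430 CPM in the control Apoe-high cells. The A20 cKO values were 320, 711, 442 and 375 CPM, against 95.1 to 210 CPM in Apoe-low cells, and a fitted log2 fold change of 1.98 (edgeR adjusted p = 4.25e-11). The 17 cells held 636 of its 805 UMIs, and without them and the shared barcodes the value was 0.03 (edgeR adjusted p = 0.971). Among thinned cells Dbi was found in 16.5% of Apoe-high and 22.3% of Apoe-low cells, with the lower share in Apoe-high cells in 6 libraries and the higher in 2. Mt1, a metallothionein, went from 1.07 to 0.51 on the log2 scale without the same cells and stayed past the threshold, and Prdx6, a peroxiredoxin, went from 0.99 to 0.44 and lost it (edgeR adjusted p = 0.310).

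Genes of antigen presentation moved unevenly. Cd74, the invariant chain of MHC class II, had 212, 114, 1112 and 628 CPM in the control and 353, 305, 317 and 288 CPM in the A20 cKO Apoe-high cells. Apoe-low cells had 43.2 to 240 CPM, and the log2 fold change was 1.65 ± 0.20 (SE, edgeR adjusted p = 1.61e-09). A single cell held 82.7% of the Cd74 UMIs of control day 2 and 82.4% of those of control day 3. Thinned cells with a UMI still made up 31.2% against 13.1%, higher in 8 of 8 libraries, and the fold on cells with a UMI was 0.73 (edgeR adjusted p = 0.00108). Cd74 was the member called among 4 tested MHC class II genes. H2-Aa and H2-Eb1, class II chains that were not tested, had 34 UMIs each in 6 Apoe-high cells. Of 16 class I genes 2 rose, H2-D1 by 0.51 and B2m by 0.25.

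Of 13 tested chemokines and cytokines 4 rose and 0 fell, with a median of 0.07. Ccl4, an inflammatory chemokine, had 503, 1239, 1546 and 86.1 CPM in the Apoe-high cells of controls. Those of A20 cKO had 206, 1735, 478 and 412 CPM, against 89.0 to 768 CPM in Apoe-low cells, and Ccl4 was higher in 5 of 8 libraries (1.13, edgeR adjusted p = 2.37e-04). Pooled over libraries, thinned cells with a Ccl4 UMI made up 19.4% of Apoe-high and 21.4% of Apoe-low cells. Within libraries the share was higher in Apoe-high cells in 5 and lower in 3. The fold on cells was 0.12 (edgeR adjusted p = 0.935). Cxcl13, the B cell attractant, rose by 0.84, Ccl3 by 0.71 and Cxcl16 by 0.43. Cd69, an early activation receptor outside this list, rose by 1.25 and reached 271 CPM in A20 cKO day 1, with 0 UMIs in the Apoe-high cells of control naive and day 2. Cyp4f18, a fatty acid hydroxylase that acts on leukotriene B4, rose by 1.26 (edgeR adjusted p = 1.31e-05), with 22.8 to 148 CPM against 2.92 to 76.1 CPM.

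Other lists held few called members. Of 26 interferon-stimulated genes 2 rose (Rsad2 by 0.74 and Ifi204 by 0.44) with a list median of 0.18. Of 10 complement genes 2 rose, C3 by 1.46 and C3ar1 by 0.36. Of 17 lysosomal genes 4 rose, the proteases Ctsh, Ctsa and Ctss by 0.37, 0.34 and 0.29 and the membrane protein Lamp1 by 0.31. Of 13 NF-kB feedback genes, the pathway that A20 restrains, 0 were called by edgeR in either direction, with a median of 0.14. Of 15 immediate-early genes Dusp1 rose by 0.56, and without cells short of identity genes or of shared barcode it did not pass (edgeR adjusted p = 0.377).

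Homeostatic genes were lower in part. Of 20 tested, 8 fell and 0 rose, with a median of -0.27. P2ry12 fell by 0.53 on the log2 scale (edgeR adjusted p = 1.31e-06), with 734 to 3151 CPM (median 1308) in Apoe-high and 867 to 4120 CPM (median 2355) in Apoe-low cells. Tmem119, a membrane protein of microglia, fell by 0.26 and was lower in 8 of 8 libraries, and Cst3, the abundant cystatin C, fell by 0.29. The lectin Siglech, Olfml3, Selplg, the fructose transporter Slc2a5 and Crybb1 made up the rest. Without cells short of identity genes or of shared barcode 7 fell. On cells with a UMI edgeR called 0 of 20.

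Of the remaining genes named as lower, Csmd3, which encodes a large complement-control protein, had 132, 76.0, 109 and 332 CPM in the Apoe-high cells of the 4 control libraries. In those of A20 cKO it had 126, 96.7, 64.2 and 57.0 CPM, below the Apoe-low value in each library. It fell by 0.87 (edgeR adjusted p = 8.42e-06) and by 0.68 on cells with a UMI (edgeR adjusted p = 0.00509). Lrba, a vesicle traffic protein, fell by 0.71 and by 0.92 on cells with a UMI. The CaMKII inhibitor Camk2n1 fell by 0.72, the nuclear transport factor Nutf2 by 0.79 and Slc2a5 by 0.72, and none of the 3 passed on cells with a UMI, where the edgeR adjusted p was 0.123, 0.337 and 0.0578.

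Proliferation genes were lower in Apoe-high cells. Mki67, the proliferation marker, had 0, 15.2, 50.1 and 0 CPM in control Apoe-high cells, and 11.8, 0, 135 and 3.35 CPM in their A20 cKO counterparts. Apoe-low cells had 0, 1.37, 94.3 and 157 CPM and 57.2, 76.9, 289 and 155 CPM. The log2 fold change was -1.88 ± 0.24 (SE, edgeR adjusted p = 2.12e-08), and the gene was lower in 6 of 8 libraries, with hardly any UMI in either class of control naive and day 1. Top2a, a topoisomerase of dividing cells, fell by 1.61, the tubulin-binding Stmn1 by 1.06, the centromere chaperone Hjurp by 0.88 and the histone Hist1h2ap by 1.69. Histone genes share sequence, so the counts of the last are uncertain. On cells with a UMI Stmn1, Hjurp and Hist1h2ap did not pass, and Mki67 and Top2a were too sparse to be tested.

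Of 8 tested core G2/M genes 6 fell (median -1.39), and of 10 core S genes 2 fell, the helicase subunits Mcm6 and Mcm7 (median -1.11). With DESeq2 the counts were 0 and 0. Cells were called G2/M or S from at least 3 of 18 or 12 core genes after thinning to 2000 UMIs and choosing the classes anew. The share of G2/M cells in Apoe-high minus that in Apoe-low cells averaged -2.24 percentage points (SD 3.18, n = 8), lower in 6 libraries and higher in 1, with an exact two-sided sign-flip permutation p = 0.0781. The S share differed by -2.24 points (SD 1.94, n = 8), lower in 7 libraries and higher in 0 (exact permutation p = 0.0156, adjusted over the 2 shares 0.0313). These calls turned on the settings. With another thinning seed the G2/M difference was -3.85 points (exact permutation, adjusted p = 0.0313), and without A20 cKO day 3 it was -1.33 points. The S difference lost its call with Apoe-high set at 1%, against all cells below 0.5%, and in 6 of 8 cases with 1 library left out.

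The genotype question was whether the difference between Apoe-high and Apoe-low cells itself differed between A20 cKO and control. Days served as the spread within a genotype. Of 7961 genes 8 were called, all with a smaller or more negative difference in A20 cKO (0.1% of those tested) and 0 with a larger one, and 362 had an unadjusted p under 0.05. They were Spp1 (-3.64, edgeR adjusted p = 3.38e-11), Cxcl10 (-2.34, 1.27e-04), H2-Ab1 (-2.24, 0.00450), Cd74 (-2.18, 1.15e-08) and Axl (-1.99, 0.00128), and, outside the 5 largest at 50 CPM or more, Lgals3 (-2.38, 0.00273), Cd72 (-1.28, 0.0157) and the chemokine Ccl12 (-0.82, 0.00447).

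Cxcl10, an interferon-induced chemokine, had 0, 0, 334 and 271 CPM in control Apoe-high cells, from 1 cell each on days 2 and 3, and 144, 532, 464 and 422 CPM in A20 cKO. H2-Ab1, a class II chain, had 132, 7.60, 201 and 111 CPM in controls and 17.6 to 46.9 CPM in A20 cKO, with 70.8% to 100% of the UMIs of control days 1 to 3 from 1 cell. The Apoe-low levels also differed between genotypes. For Cxcl10 they were 3.66 to 152 CPM in controls and 242 to 493 CPM in A20 cKO, and for Axl and Cd72 they reached 340 and 443 CPM in A20 cKO. For H2-Ab1 they were 16.7 to 44.6 and 25.5 to 37.5 CPM. On cells with a UMI 0 genes were called by edgeR, with 253 at an unadjusted p under 0.05 and a lowest adjusted p of 0.771, and 6 of the 8 were tested there. Genotype is partly confounded with the library sets that share barcodes, which was not tested apart.

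Cells with intermediate Apoe shares were set beside the classes as a description. Over the libraries the median Lyz2 level was 317 CPM below 0.1% Apoe, 499 from 0.1% to 0.5%, 692 from 0.5% to 1% and 1116 at 1% or more. Cd63 went from 512 to 806, 975 and 1184 CPM, Cd74 from 123 to 212, 255 and 381, and Cd72 from 113 to 210, 283 and 357. These 4 genes and Abca1 (59.1, 83.7, 105 and 132 CPM) were higher in each further class of Apoe. Mki67 went the other way, from 85.6 to 46.5, 2.84 and 0 CPM. Csmd3 went from 217 to 157, 85.8 and 99.1 CPM, with no further fall at the top. Of the other genes named as higher, Dbi, Cyp4f18, Ccl4, Mt1 and Prdx6 also rose at each step. These steps include the 17 cells short of identity genes. Those cells held 636 of the 805 Dbi UMIs of the Apoe-high cells, 127 of the 381 for Mt1 and 36 of the 119 for Prdx6. Lpl, Cst7, Lilrb4a, Spp1 and Cd69 did not keep rising. Lpl went from 33.7 to 66.2, 98.6 and 76.6 CPM, Cst7 from 35.7 to 76.3, 80.3 and 75.7, and Lilrb4a from 26.1 to 65.3, 110.0 and 103. Spp1 went from 7.18 to 40.1, 24.7 and 49.6 CPM, and Cd69 from 35.2 to 22.6, 44.0 and 8.33.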

How the data were processed

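YFP-positive cells of 8 libraries were analysed. The deposited matrices hold UMI counts per gene and barcode, made by the authors with Cell Ranger 2.1.1 on mm10 per the labels; each condition is 1 library, and no doublet caller was run (the study's sort gate excluded doublets before loading, which does not remove droplets with more than 1 cell). The members and gene lists were chosen with earlier results of these data known. Shares have exact binomial and Newcombe intervals, which cover counting error only. UMIs were summed per class and library and tested with edgeR 4.0.16 (limma 3.58.1, R 4.3.3; TMM, filterByExpr, library block; Apoe left out), with DESeq2 1.42.0 as an alternative; a log2 ratio per library used 0.5 UMIs as pseudocount. Named genes were the 15 highest and 10 lowest fold changes past adjusted p 0.05 at a mean of 50 CPM, leaving out mitochondrial, ribosomal and predicted genes, and the 5 largest genotype differences. In simulated counts for the 7961 genes of the Apoe-high against Apoe-low comparison, 75% of 2-fold and 93% of 4-fold changes were recovered, with 4.55% false calls. The simulation gave all genes a common dispersion and each changed gene the same fold in every library. It had no sums that rest on a single cell, so these rates do not describe such genes. Coordinates are from GENCODE on GRCm38, which matched 27645 of 27998 identifiers.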

Additional observations from a re-analysis of the deposited data

Results flagged for a closer look

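Over the 8 libraries, 4 of 27 sets of values held a library far from the others, where chance flags about 1 set in 20. The log2 ratio of Apoe-high to Apoe-low cells on control day 3 was 2.56 for Mt1 (other libraries 0.33 to 1.26) and 2.79 for Prdx6 (-0.13 to 1.11), in the library that held 6 of the 17 cells short of identity genes. The Cst7 ratio was 3.46 in control naive (others 0.55 to 1.89), from 3 UMIs in 14 cells. The Abca1 ratio was -2.15 on control day 2 (others 0.20 to 1.40), where the Apoe-high cells held 0 UMIs. The difference between the classes differed between genotypes by edgeR's interaction term for 8 genes, as A20 cKO minus control on the log2 scale: Spp1 -3.64, Lgals3 -2.38, Cxcl10 -2.34, H2-Ab1 -2.24, Cd74 -2.18, Axl -1.99, Cd72 -1.28 and Ccl12 -0.82. Among the 257 barcodes that the limits left out, 46 (17.9%, exact interval 13.4 to 23.1) had an Apoe share of at least 0.5%, against 2.86% of kept barcodes.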

How the results depend on the processing

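Against 156 genes higher and 88 lower, the counts were 91 and 34 with cells thinned to 2000 UMIs, 56 and 42 with Apoe-high set at 1%, 103 and 45 without the 5% of cells with the most UMIs, 337 and 314 without a filter on low counts, 36 and 8 in the 4 control libraries, 39 and 5 in control naive, day 1 and day 2 alone, and 19 and 5 on cells with a UMI. DESeq2 called 38 lower, edgeR without TMM 148 lower, and the 4 A20 cKO libraries 51 lower. The share of calls that were higher was 63.9%, and 47.5% without TMM, 51.8% without a filter (median of all genes -0.22) and 79.6% with DESeq2. Without the library block 2 genes were higher and 0 lower. Leaving out 1 library gave 103 to 168 higher, 103 without A20 cKO day 1, and 60 to 94 lower. Against 8 genotype differences there were 4 thinned, 3 without the cells with the most UMIs, 1 with DESeq2 and 0 on cells with a UMI, and 5 to 12 with 1 library left out, 5 without control naive. The G2/M share difference was -3.85 points with another thinning seed and -4.21 at 1%, both called, and -2.81 to -1.33 with 1 library left out, called without control day 3 (-2.81). The S share difference was -1.94 at 1% and -1.95 against all cells below 0.5%, both not called, and -2.56 to -1.69 with 1 library left out, where it lost its call in 6 of 8 cases. The sign reversed for Dbi (-0.19 on cells with a UMI and -0.30 in control naive, day 1 and day 2 alone), Abca1 (-0.50 in the same 3) and the Cxcl10 genotype difference (9.60 at 1%, 0.16 on cells with a UMI). The cause of these changes was not tested. Over the alternatives other than the fit without block there were 753 values for 30 named results, of which 661 kept their call, 87 lost it and 5 reversed. The alternatives on identity genes (alone or with shared barcodes), Ms4a7 and cells with a UMI were chosen after seeing the data. The number of Apoe-high cells was lowest in the control libraries, with 14 to 34 each.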
